A study of Mus musculus with 12 samples.

Results

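The 10 inflammatory chemokine genes followed here through the preosteoclast cultures of this study are Ccl2, Ccl3, Ccl4, Ccl5, Ccl6, Ccl7, Ccl9, Ccl12, Cxcl2 and Cxcl10. They were chosen by gene symbol, not by their values, and the 10 rows were taken from the 57010 genes of the count table. Each of the 10 passed the filter on low counts that 15425 genes passed. Female mice were LSD1WT or LSD1cKO, the latter lacking LSD1 (Kdm1a), a histone demethylase, in cells that express Cre from the Lyz2 (LysM) promoter, so that deletion was limited to the myeloid lineage. Ligated mice carried a ligature around the maxillary second molars for 7 days to induce periodontitis, unligated mice had none, and the labels give an age of 2 months. Marrow was flushed from the mandible or the femur and cultured for 2 days with M-CSF and RANKL. The 12 libraries formed 6 groups of 2: ligated mandible, ligated femur and unligated femur, each in both genotypes. Unligated mandible was not analysed here.

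Chemokines are small secreted proteins that draw leukocytes towards a tissue by engaging G protein-coupled receptors. Ccl2, Ccl7 and Ccl12 are the monocyte chemoattractants that act on Ccr2. Ccl3, Ccl4 and Ccl5 draw monocytes and T cells, and Ccl3 and Ccl5 act on Ccr1. Ccl6 and Ccl9 are rodent ligands of Ccr1, and Ccl9 is known as a product of RANKL-stimulated osteoclast precursors. Cxcl2 draws neutrophils through Cxcr2, and Cxcl10 is an interferon-induced ligand of Cxcr3. Most of these genes are switched on in macrophages by NF-kB, by interferon signalling or by both.

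The promoters of the genes on which the results turn are shown first, because Cxcl10 and Ccl9 lie at opposite ends of the patterns described and because NF-kB and interferon signalling are the usual inducers of the family. RefSeq promoter entries of build GRCm38.p6, which is not the GRCm39 build of the counts, matched 6 of the 10 genes: Ccl3, Ccl6, Ccl9, Ccl12, Cxcl2 and Cxcl10. Each sequence holds the 250 bases before the annotated start, and positions are counted back from that start, so that -1 is the last base printed. The windows are chr5:92348890-92349139 on the minus strand for Cxcl10, chr5:90903649-90903898 on the plus strand for Cxcl2, chr11:83578637-83578886 on the minus strand for Ccl9, and chr11:83593088-83593337 on the minus strand for Ccl6. Capitals mark matches to the NF-kB consensus on either strand, the interferon-stimulated response element core GAAANNGAAA on either strand, the AP-1 site TGANTCA, whose reverse complement is the same pattern, and TATAAA on the strand of the gene.
Cxcl10: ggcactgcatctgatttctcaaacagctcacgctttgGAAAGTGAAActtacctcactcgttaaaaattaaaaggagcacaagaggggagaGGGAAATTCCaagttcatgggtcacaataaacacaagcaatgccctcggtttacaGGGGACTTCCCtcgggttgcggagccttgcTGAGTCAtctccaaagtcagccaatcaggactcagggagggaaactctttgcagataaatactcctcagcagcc
Cxcl2: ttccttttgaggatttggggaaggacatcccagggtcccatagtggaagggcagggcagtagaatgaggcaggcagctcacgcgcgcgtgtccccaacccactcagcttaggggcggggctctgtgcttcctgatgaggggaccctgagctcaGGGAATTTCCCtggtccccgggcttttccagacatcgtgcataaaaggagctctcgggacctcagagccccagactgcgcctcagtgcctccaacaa
Ccl9: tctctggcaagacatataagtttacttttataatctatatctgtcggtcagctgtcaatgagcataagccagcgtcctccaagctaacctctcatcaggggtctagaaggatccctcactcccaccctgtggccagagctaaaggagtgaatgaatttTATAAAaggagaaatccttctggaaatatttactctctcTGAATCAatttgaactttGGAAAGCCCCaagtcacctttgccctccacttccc
Ccl6: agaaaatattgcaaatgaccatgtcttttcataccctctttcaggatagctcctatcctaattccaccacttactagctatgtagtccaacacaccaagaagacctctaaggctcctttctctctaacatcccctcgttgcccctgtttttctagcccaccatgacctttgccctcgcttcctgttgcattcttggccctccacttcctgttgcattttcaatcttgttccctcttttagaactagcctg

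Cxcl10 held the interferon element core at -213 to -204, NF-kB matches at -159 to -150 and over -104 to -94, where overlapping matches share bases, and an AP-1 match at -74 to -68. Cxcl2 held overlapping NF-kB matches over -97 to -87. Ccl9 held TATAAA at -92 to -87, an AP-1 match at -53 to -47 and an NF-kB match on the opposite strand at -35 to -26. Ccl12 matched only TATAAA, at -31 to -26, and Ccl3 and Ccl6 matched none of these letters in this window. Of all 32851 promoter entries cut to the same length, 7.25% held the NF-kB match, 2.98% the interferon element core, 6.75% the AP-1 match and 7.59% TATAAA. Among the 6 windows, that of Cxcl10 held the interferon core. These are matches of letters, not measured binding.

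Several libraries need a word before the values. Total counts ran from 21375805 to 32526751 per library, and the 10 chemokines together took 0.0981% to 0.321% of them. Kdm1a, the deleted gene, lay between 61.2 and 71.3 CPM (counts relative to a library size scaled by the trimmed mean of M-values, TMM) in the LSD1WT libraries and between 15.6 and 24.3 CPM in the LSD1cKO libraries. The replicate 2 libraries of LSD1WT femur, both ligated and unligated, stood apart from the other 10. The summed level of 10 osteoclast markers was 168 and 238 CPM in them and 11544 to 40907 CPM elsewhere, although no marker was at 0. Their 10 monocyte and macrophage markers summed to 10448 and 8398 CPM, against 1643 to 4389 CPM elsewhere. Their megakaryocyte list, which was nearly all Pf4, a platelet chemokine, summed to 905 and 439 CPM, against 10.9 to 61.6 CPM elsewhere. Results that rest on these libraries are given with and without them. LSD1WT mandible replicate 3 is a mandible culture by its title and a femur culture by its library name, and was kept as mandible. It differed from replicate 1 of its group with a biological coefficient of variation of 0.0246, against 0.0965 to 0.716 within the other pairs. Counts of this pair differed by 1.56 times the sampling noise (the median chi-square over genes relative to its expectation), against 5.73 to 124 times in the other pairs. The pair was kept as 2 samples, and whether they share material is not known. In bulk RNA, fewer cells of a type and less RNA per cell cannot be told apart.

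**Figure D1:**
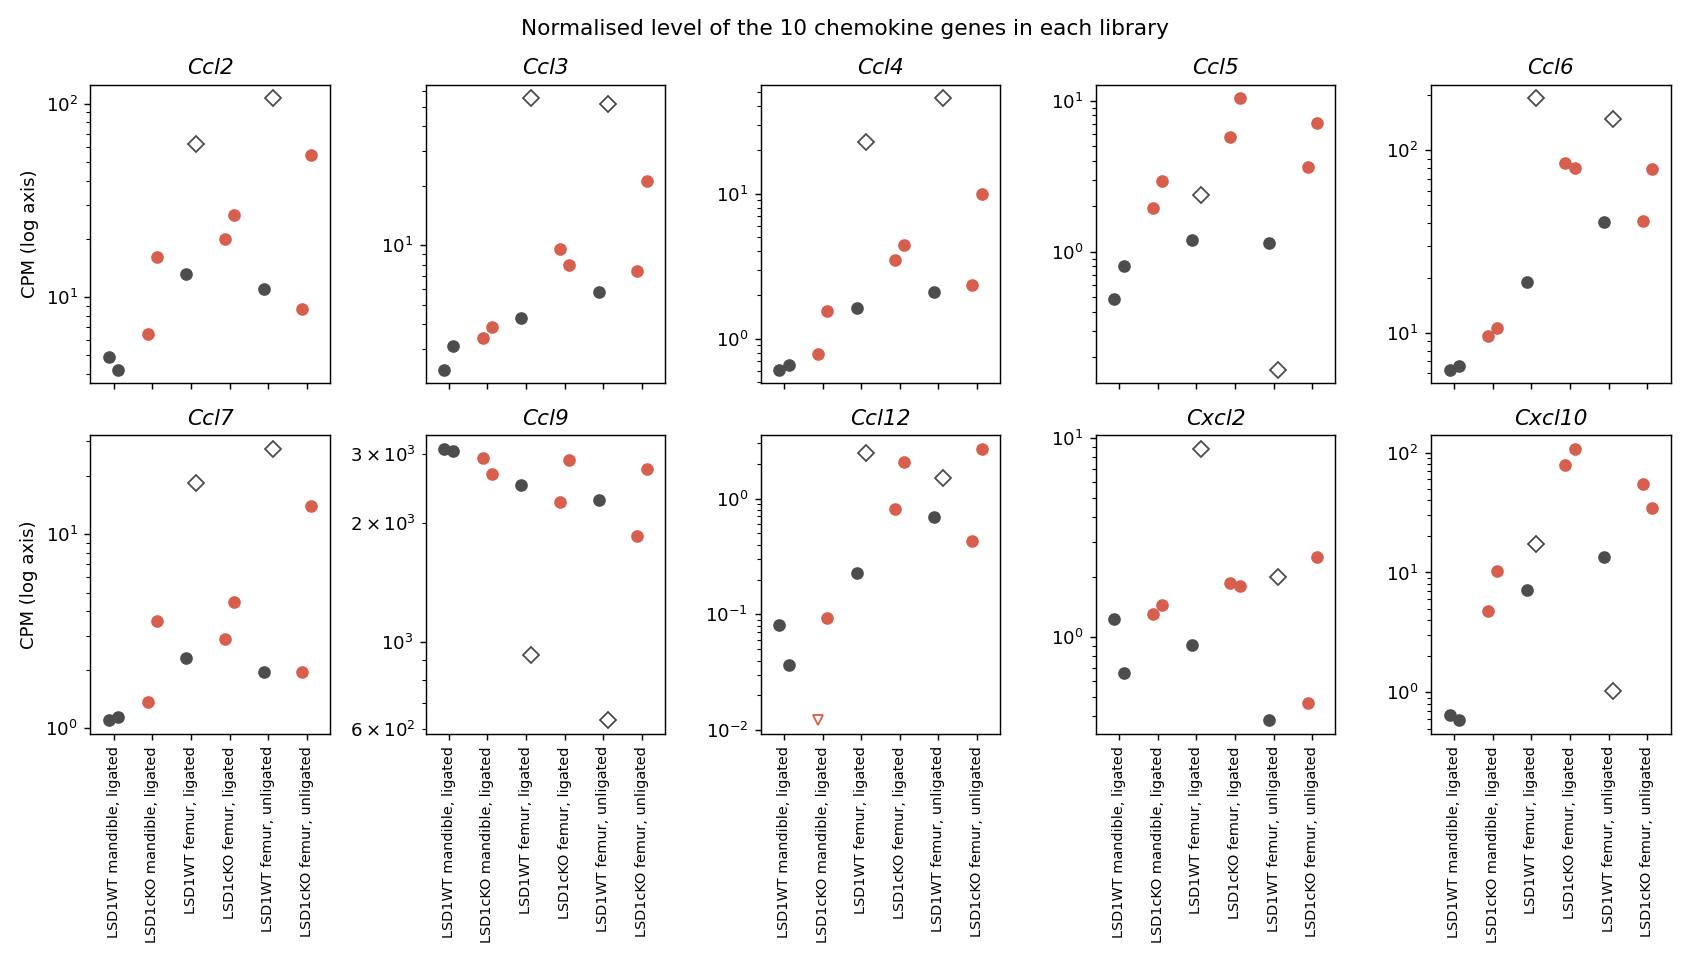
Level of each chemokine gene in every library, in CPM on a log axis whose range differs between panels. Grey marks LSD1WT and red LSD1cKO, each point is 1 library, open diamonds are the replicate 2 libraries of LSD1WT femur, and the open triangle marks a library with 0 counts. Cxcl10 and Ccl5 lay higher in LSD1cKO in each of the 3 cultures, while the open diamonds lay above the other libraries for Ccl2, Ccl3, Ccl4, Ccl6 and Ccl7 and below them for Ccl9.

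Ccl9 dominated the family. Per kilobase of merged exon, its median over the 12 libraries was 851 CPM per kb, and its lowest library, at 208 CPM per kb, was above the highest library of any other member. Ccl6 followed with a median of 22.7 CPM per kb, then Ccl2 with 12.9, Ccl3 with 8.65, Cxcl10 with 5.27, Ccl4 with 3.37, Ccl7 with 3.23, Ccl5 with 2.25, Ccl12 with 1.04 and Cxcl2 with 0.667 CPM per kb. Neighbours in that order below Ccl9 overlapped in their ranges over libraries. Ccl9 supplied 83.4% to 98.6% of the summed level per kb of the 10 genes in 10 libraries, and 49.5% and 37.2% in the LSD1WT femur replicate 2 libraries of ligated and unligated mice. Merged exon lengths came from GENCODE vM21, in which an exon of Art3 on the opposite strand overlaps Cxcl10 and no other member is overlapped by another gene.

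The first question was whether loss of LSD1 changed chemokine expression in each culture. Cxcl10 and Ccl5 lay higher in every LSD1cKO culture, without overlap, and rose in the test over the 3 cultures. No other member passed the test in any of these comparisons with all 12 libraries.

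Cxcl10 measured 0.653 and 0.587 CPM in the 2 LSD1WT mandible libraries and 4.74 and 10.3 CPM in the 2 LSD1cKO mandible libraries. In femur cultures of ligated mice it measured 7.18 and 17.2 CPM in LSD1WT and 78.0 and 107 CPM in LSD1cKO. In femur cultures of unligated mice it measured 13.5 and 1.04 CPM in LSD1WT and 54.3 and 34.5 CPM in LSD1cKO. Every LSD1cKO library was thus above every LSD1WT library of its own culture, but the LSD1cKO mandible libraries lay within the range of the LSD1WT femur libraries. The fitted log2 fold change was 3.59 ± 1.06 (SE, n = 2 against 2) in mandible, 2.92 ± 0.98 in ligated femur and 2.61 ± 0.97 in unligated femur, with adjusted p of 0.655, 0.571 and 0.850 by edgeR's quasi-likelihood test. Over the 3 cultures, with culture as a term in the model, it was 3.00 ± 0.53 (n = 6 against 6 libraries). This was an 8.02-fold rise with an adjusted p of 0.0127 by the same test. By the labels, some ligated mice were sampled at both sites, so the libraries of a genotype outnumber its mice. The model had no term for the mouse and treated such libraries as independent. This holds for every gene tested over the cultures, and the effect with the mouse as a block was not tested.

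Ccl5, a chemoattractant of T cells and monocytes, separated the genotypes as well. It measured 0.490 and 0.807 CPM in LSD1WT mandible and 1.96 and 2.94 CPM in LSD1cKO mandible. In ligated femur it measured 1.20 and 2.36 CPM in LSD1WT and 5.79 and 10.3 CPM in LSD1cKO. In unligated femur it measured 1.15 and 0.166 CPM in LSD1WT, the latter from 4 counts, and 3.63 and 7.15 CPM in LSD1cKO. The genotypes did not overlap in any of the 3 cultures. The log2 fold changes were 1.91 ± 0.81, 2.19 ± 0.79 and 3.02 ± 0.83 in the same order, with adjusted p of 1.00, 0.636 and 0.603. Over the 3 cultures the log2 fold change was 2.37 ± 0.44, a 5.16-fold rise with an adjusted p of 0.0169 by the same test. Markers of T and NK cells, which also express Ccl5, summed to 1.54 to 3.30 CPM in LSD1cKO libraries. In LSD1WT they summed to 0 and 0.0414 CPM in the femur replicate 2 libraries and to as much as 5.12 CPM in the others. Outside those replicate 2 libraries the sums were mostly Trac, while Cd3e was at most 0.0713 CPM and Cd3d at most 0.0389 CPM. The sums are therefore no measure of T and NK cell content.

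Over the 3 cultures, 3.53% of the 15425 genes were called and 3.00% were called higher in LSD1cKO, against 2 of the 10 chemokines, both higher. In each culture, 2 members had an unadjusted p under 0.05, and in each these were Ccl5 and Cxcl10. After adjustment edgeR called 0 members in each of the 3 cultures. The share of all genes called was 0% in mandible, 0.00648% in ligated femur, where the called gene was Kdm1a, and 0% in unligated femur. An unadjusted p under 0.05 was given to 744 genes in mandible, 1061 in ligated femur and 763 in unligated femur. DESeq2 called 1 member in mandible (Cxcl10, adjusted p = 0.0210), 0 in ligated femur and 1 in unligated femur (Ccl5, adjusted p = 0.0272), among 146, 217 and 122 genes called in these cultures. Every LSD1cKO library lay above every LSD1WT library in all 3 cultures for 2 members, and for 5.17% of all genes. The over-culture call of Ccl5 was lost without the LSD1cKO ligated femur replicate 2 library (adjusted p = 0.0514), and that of Cxcl10 was lost when LSD1WT mandible replicate 3 was counted as femur (adjusted p = 0.0623).

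The other members were not separated by genotype in all 3 cultures. In the femur the direction of Ccl2, Ccl3, Ccl4, Ccl6 and Ccl7 rested on the replicate 2 libraries of LSD1WT, as did that of Cxcl2 in ligated femur, whereas Ccl9 and Ccl12 had positive log2 fold changes with and without them. In mandible, 8 of the 10 members had a positive log2 fold change, the others being Ccl9 and Ccl12, and Ccl12 had at most 3 counts in a library. The median was 0.76 over the 10 members and 0 over all genes. The LSD1cKO libraries were above the LSD1WT libraries without overlap for 8 members, against 34.1% of all genes. The LSD1WT libraries of this comparison are the close pair noted above. In ligated femur, 4 of 10 were positive with a median of -0.52, against -0.12 over all genes, and 2 did not overlap in the higher direction, against 14.8% of all genes. In unligated femur, 5 of 10 were positive with a median of -0.16, against -0.046 over all genes, and 2 did not overlap in the higher direction, against 9.82% of all genes.

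Ccl2, the main monocyte chemoattractant, shows how the femur values fell out. It measured 4.90 and 4.22 CPM in LSD1WT mandible and 6.46 and 16.2 CPM in LSD1cKO mandible, a log2 difference of 1.31 ± 1.17 (adjusted p = 1 by edgeR). In ligated femur it measured 13.2 and 61.5 CPM in LSD1WT and 20.0 and 26.5 CPM in LSD1cKO. In unligated femur it measured 11.1 and 106 CPM in LSD1WT and 8.66 and 54.1 CPM in LSD1cKO. The LSD1cKO femur libraries thus fell between the replicates of LSD1WT in ligated mice and overlapped with them in unligated mice. Ccl3, a ligand of Ccr1, measured 4.30 and 54.9 CPM in LSD1WT ligated femur and 9.64 and 7.93 CPM in LSD1cKO ligated femur. Its near neighbour Ccl4, a chemoattractant of monocytes and T cells, measured 1.62 and 22.8 CPM against 3.50 and 4.43 CPM in the same groups. Both showed the same order as Ccl2, with LSD1cKO between the LSD1WT replicates.

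The replicate 2 libraries of LSD1WT femur were above all 10 other libraries for Ccl2, Ccl3, Ccl4, Ccl6 and Ccl7. Against replicate 1 of the same group, replicate 2 was 14.1-fold higher for Ccl4 in ligated and 21.6-fold higher in unligated mice, and 12.8-fold and 8.82-fold higher for Ccl3. The ratios were 10.2 and 3.69 for Ccl6, 4.67 and 9.60 for Ccl2, 10.9 and 2.17 for Ccl12, and 9.69 and 5.21 for Cxcl2. Ccl7 measured 2.30 CPM in replicate 1 and 18.4 CPM in replicate 2 of ligated femur, and 1.95 and 27.4 CPM in unligated femur. Ccl9 went the other way, at 0.368 and 0.276 of replicate 1. Cxcl10 and Ccl5 were split, at 2.40 and 1.97 times replicate 1 in ligated mice and 0.0768 and 0.145 times in unligated mice. The same libraries were those low in osteoclast markers and high in macrophage markers, whose part in these differences was not tested.

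Without both of these libraries, which left 1 LSD1WT library in each femur group and took its spread from the other groups, all 10 members had positive log2 fold changes in ligated femur and in unligated femur. Medians were then 1.24 and 1.53, against 0.032 and 0.016 over all genes. In unligated femur, however, LSD1cKO replicate 1 lay below the remaining LSD1WT library for Ccl2 (8.66 against 11.1 CPM), Ccl9 (1855 against 2293 CPM) and Ccl12 (0.428 against 0.687 CPM). For Ccl6 (41.1 against 40.4 CPM) and Ccl7 (1.96 against 1.95 CPM) the 2 libraries were nearly level. The positive values of these genes in unligated femur thus rested on LSD1cKO replicate 2. Over the 3 cultures, 5 members were called and all 5 were higher in LSD1cKO: Ccl3 at 0.89 ± 0.29 (adjusted p = 0.0494), Ccl4 at 1.27 ± 0.40 (adjusted p = 0.0440), Ccl5 at 2.30 ± 0.32 (adjusted p = 6.2e-04), Ccl6 at 1.05 ± 0.28 (adjusted p = 0.0221) and Cxcl10 at 2.92 ± 0.41 (adjusted p = 6.1e-04), all by edgeR. In that fit 14.4% of 16008 genes were called higher. Ccl2 reached 1.26 ± 0.45 and did not pass (adjusted p = 0.0652). Ccl9 had a log2 fold change of -0.0022 ± 0.14 in this fit, against 0.37 ± 0.34 with all 12 libraries. The libraries left out were those in which Ccl9 was lowest, so the smaller error sets no bound on its change. In ligated femur alone 3 members passed without these libraries, Ccl5, Ccl6 and Cxcl10, beside 1103 genes called higher, and in mandible Cxcl10 passed with an adjusted p of 0.0066.

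**Figure D2:**
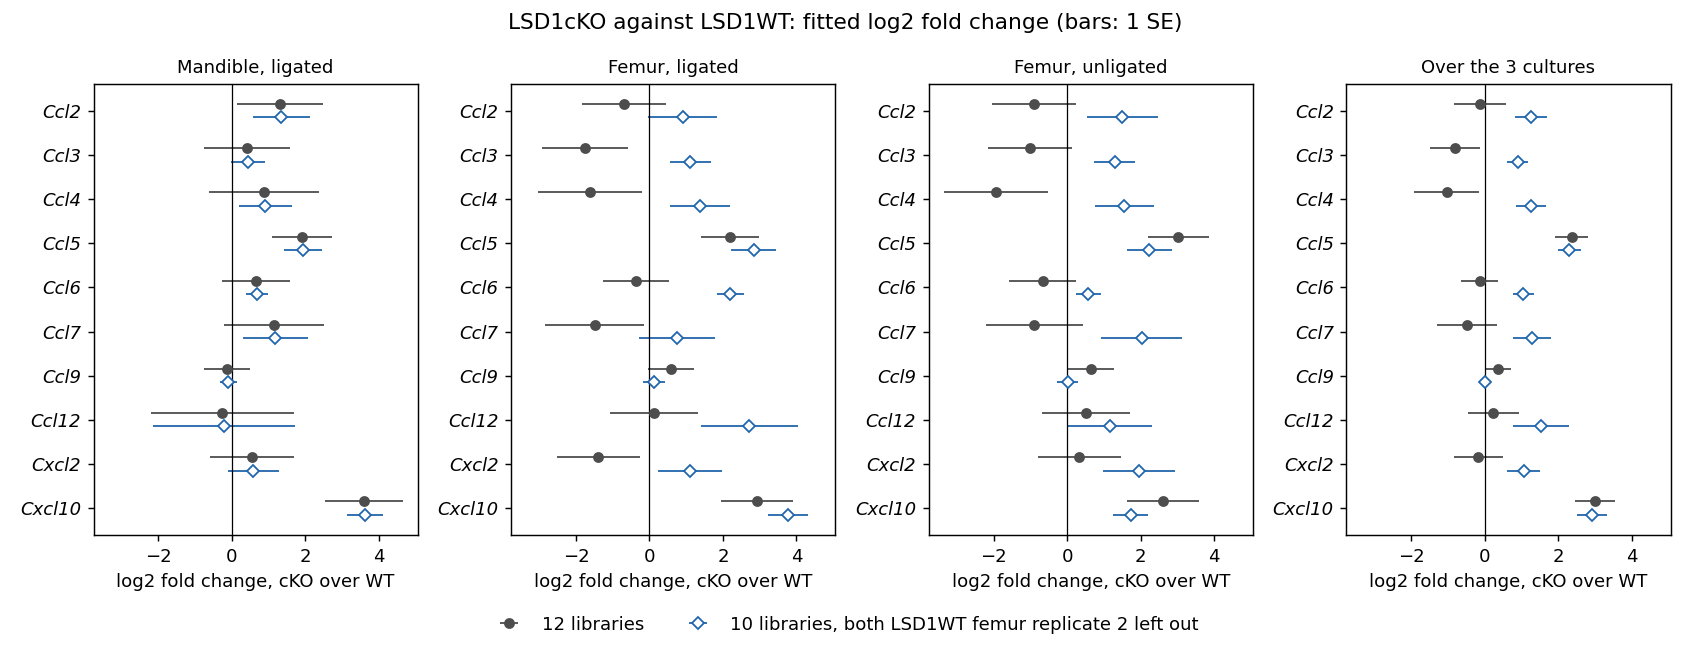
Fitted log2 fold change of LSD1cKO over LSD1WT for each member, with bars of 1 SE, in mandible, ligated femur, unligated femur and over the 3 cultures. Grey circles are fits of 12 libraries and open blue diamonds fits of 10 libraries without the LSD1WT femur replicate 2 libraries. Cxcl10 and Ccl5 lie right of 0 in each fit, Ccl2, Ccl3, Ccl4, Ccl6 and Ccl7 change side in the femur panels, and Ccl12 in mandible, with at most 3 counts in a library, has no interpretable value.

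Ccl6, a Ccr1 ligand, measured 6.28 and 6.57 CPM in LSD1WT mandible and 9.62 and 10.6 CPM in LSD1cKO mandible. In ligated femur it measured 18.9 and 192 CPM in LSD1WT and 84.8 and 79.6 CPM in LSD1cKO, and in unligated femur 40.4 and 149 CPM in LSD1WT and 41.1 and 79.1 CPM in LSD1cKO. Its mandible libraries were separated by genotype and its femur libraries were not.

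Ccl7, which like Ccl2 acts on Ccr2, ran from 1.10 to 27.4 CPM in LSD1WT and from 1.37 to 13.9 CPM in LSD1cKO. Ccl12, the third Ccr2 ligand, ran from 0.0367 to 2.46 CPM in LSD1WT and from 0 to 2.68 CPM in LSD1cKO, and a count of 0 allows up to 3 counts. Cxcl2 ran from 0.382 to 8.77 CPM in LSD1WT and from 0.463 to 2.53 CPM in LSD1cKO. For all 3 genes the genotypes overlapped, and none passed the test over the cultures, with log2 fold changes of -0.47 ± 0.81 for Ccl7, 0.24 ± 0.70 for Ccl12 and -0.18 ± 0.67 for Cxcl2.

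Ccl9 stayed near one level outside the replicate 2 libraries of LSD1WT femur. It measured 3088 and 3061 CPM in LSD1WT mandible and 2936 and 2676 CPM in LSD1cKO mandible. In ligated femur it measured 2507 and 923 CPM in LSD1WT and 2266 and 2887 CPM in LSD1cKO, and in unligated femur 2293 and 632 CPM in LSD1WT and 1855 and 2754 CPM in LSD1cKO. Its log2 fold change over the cultures was 0.37 ± 0.34 (adjusted p = 0.670 by edgeR).

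The second question was whether the genotype effect depended on the skeletal site or on the ligature. It was tested as a difference of differences, and edgeR called 0 members and 0% of all genes for either. With an unadjusted p under 0.05 there were 0 members for both, 149 genes for the site and 53 for the ligature, and DESeq2 called 0 members for both. For Cxcl10 the mandible effect exceeded the ligated femur effect by 0.66 ± 1.34 on the log2 scale, and for Ccl5 it was smaller, at -0.28 ± 1.12. The ligated femur effect minus the unligated one was 0.31 ± 1.29 for Cxcl10 and -0.84 ± 1.09 for Ccl5. With errors of this size, differences of several fold between cultures could not be resolved.

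The third question was how mandible and femur cultures of ligated mice differed. In both genotypes, 9 of the 10 chemokines had a negative fitted log2 fold change of mandible over femur, and the exception was Ccl9. Without the LSD1WT femur replicate 2 libraries Cxcl2 in LSD1WT also turned, to 0.083 ± 0.86. In LSD1WT, Cxcl10 was at 0.653 and 0.587 CPM in mandible against 7.18 and 17.2 CPM in femur, and its LSD1cKO levels were 4.74 and 10.3 CPM against 78.0 and 107 CPM. Ccl6 in LSD1WT was at 6.28 and 6.57 CPM against 18.9 and 192 CPM, and Ccl6 in LSD1cKO was at 9.62 and 10.6 CPM against 84.8 and 79.6 CPM. Mandible was below femur without overlap in both genotypes for 7 members, which were Ccl2, Ccl3, Ccl4, Ccl5, Ccl6, Ccl12 and Cxcl10, and for 21.8% of all genes. For Ccl12 this rests on 0 to 3 counts per mandible library, against 7 to 48 counts per ligated femur library. Within one genotype the count was 8 members in LSD1WT, against 31.5% of all genes, and 8 in LSD1cKO, against 35.0% of all genes.

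With all groups in one fit, edgeR called 0 members and 0% of genes between sites in LSD1WT and 0 members and 0% of genes in LSD1cKO. At an unadjusted p under 0.05, 6 members were lower in mandible in LSD1WT, against 14.7% of all genes, and 3 in LSD1cKO, against 6.81%. DESeq2 called 5 members among 1190 genes in LSD1WT and 3 members among 810 genes in LSD1cKO, and these members were lower in mandible. The fitted log2 fold change of mandible over femur for Cxcl10 was -4.29 ± 1.09 in LSD1WT and -3.62 ± 1.01 in LSD1cKO (adjusted p = 0.167 and 0.194 by edgeR). For Ccl6 it was -4.04 ± 1.03 and -3.02 ± 0.98 (adjusted p = 0.167 and 0.221). Median log2 fold changes over the 10 members were -3.31 in LSD1WT and -1.49 in LSD1cKO, against -0.034 and -0.0042 over all genes. Without the LSD1WT femur replicate 2 libraries they were -1.15 and -1.51.

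Mandible and femur libraries of LSD1cKO replicates 1 and 2 and of LSD1WT replicate 1 came from the same mice, and a fit with the mouse as a block compared sites within animals. It called 8 members lower in mandible in LSD1cKO, against 18.4% of all genes called lower: Ccl2, Ccl3, Ccl4, Ccl5, Ccl6, Ccl7, Ccl12 and Cxcl10. Within these 2 mice the log2 fold change was -3.69 ± 0.18 for Cxcl10, -3.02 ± 0.17 for Ccl6, -1.78 ± 0.25 for Ccl4 and -1.14 ± 0.18 for Ccl2. In the one LSD1WT mouse, 3 members were called, all lower in mandible, against 5.24% of all genes called lower: Ccl2 at -1.43 ± 0.28, Ccl6 at -1.59 ± 0.25 and Cxcl10 at -3.45 ± 0.37. This fit had 1 residual degree of freedom, and its spread was estimated from the 2 LSD1cKO pairs. Leaving out both LSD1WT femur replicate 2 libraries from the unblocked fit gave 1 call in LSD1WT, Cxcl10 at -3.49 ± 0.55, and 4 in LSD1cKO, Ccl5, Ccl6, Ccl12 and Cxcl10, among 144 and 3466 genes called, of which 123 and 1761 were lower in mandible.

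**Figure D3:**
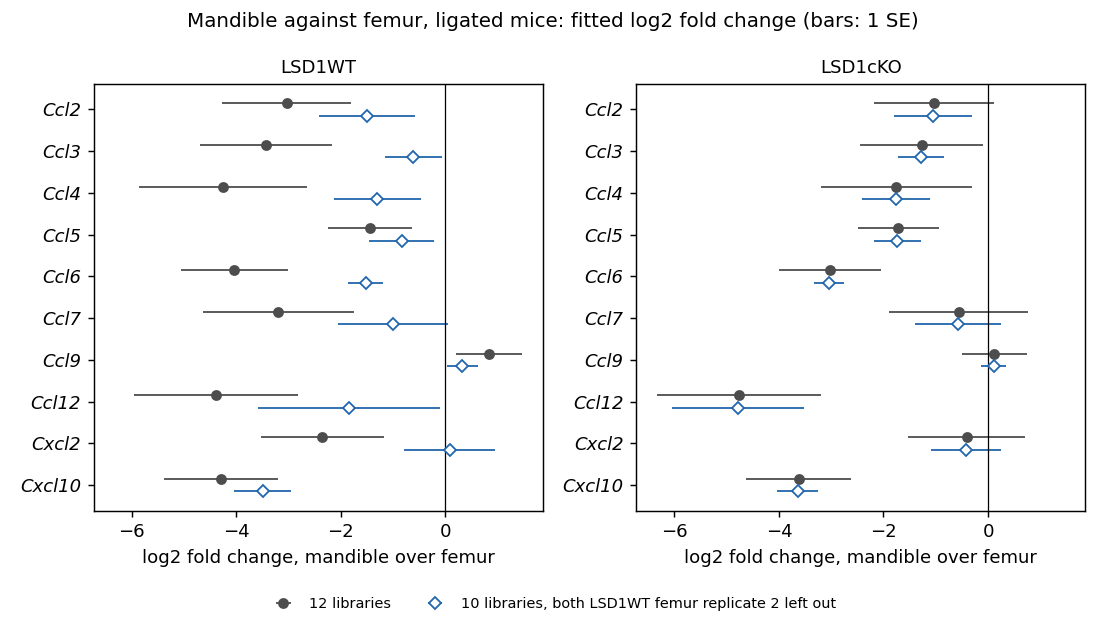
Fitted log2 fold change of mandible over femur in ligated mice for each member, with bars of 1 SE, in LSD1WT and LSD1cKO. Grey circles are fits of 12 libraries and open blue diamonds fits of 10 libraries without the LSD1WT femur replicate 2 libraries. Cxcl10 lies between -4.29 and -3.49 in all 4 fits, Ccl9 lies at or right of 0, and the LSD1WT values of Ccl3, Ccl4 and Ccl6 move towards 0 without those libraries.

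Marker levels differed between the sites as well. Monocyte and macrophage markers summed to 1643 to 2087 CPM in mandible and, outside the libraries set apart above, to 2553 to 4389 CPM in femur. Stromal markers summed to 42.0 CPM in both LSD1WT mandible libraries and to 4.76 and 10.2 CPM in LSD1cKO mandible. These sums were mostly Col1a1 and Col1a2. Dcn measured 1.59 and 1.06 CPM in LSD1WT mandible and 1.61 and 1.39 CPM in LSD1cKO mandible, and Lum was likewise not lower in LSD1cKO. Pdgfrb was lower there, at 0.816 and 0.807 CPM in LSD1WT against 0.344 and 0.433 CPM in LSD1cKO. Osteoclast markers summed to 26090 and 26214 CPM in LSD1WT mandible and 14650 and 14779 CPM in LSD1cKO mandible. In femur, the replicate 1 libraries of LSD1WT stood at 40907 and 37456 CPM, and LSD1cKO libraries at 11544 to 29103 CPM. The part of these levels in the chemokine differences was not tested.

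Ligature placement was compared in femur only. Neither genotype gave a call, with 0 members and 0% of all genes in LSD1WT and the same in LSD1cKO. At an unadjusted p under 0.05 there were 0 members in either, beside 118 genes in LSD1WT and 148 in LSD1cKO, and DESeq2 called 0 members. Cxcl10 differed by 1.06 ± 0.92 on the log2 scale in LSD1cKO femur, at 78.0 and 107 CPM with the ligature and 54.3 and 34.5 CPM without. Both ligated LSD1cKO femur libraries were above both unligated ones for 2 members, Cxcl10 and Ccl6, and for 14.0% of all genes, and the fitted difference of Cxcl10 was little more than its error. In LSD1WT femur the difference was 0.75 ± 0.92.

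The members fell into sets that varied together over the 12 libraries, which share their groups and their depth, so that the correlations are descriptions. Ccl2 and Ccl7 had a Pearson r of 0.98 in log2 CPM, Ccl3 and Ccl4 of 0.98, and Ccl6 and Ccl12 of 0.94. Cxcl10 and Ccl5 had an r of 0.89 with each other, and Ccl5 had an r of 0.11 with Ccl2 and 0.0050 with Ccl4. Ccl9 was inversely related to Ccl3, at -0.85, and to Ccl4, at -0.84. In the 10 libraries without LSD1WT femur replicate 2, Ccl5 had an r of 0.82 with Ccl2 and 0.84 with Ccl4, Cxcl10 an r of 0.92 with Ccl6, and Ccl9 an r of -0.38 with Ccl3. The separation of Ccl5 and Cxcl10 from the other Ccl genes thus rested on those 2 libraries, whereas the link of Ccl5 with Cxcl10, at 0.90, was not.

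**Figure D4:**
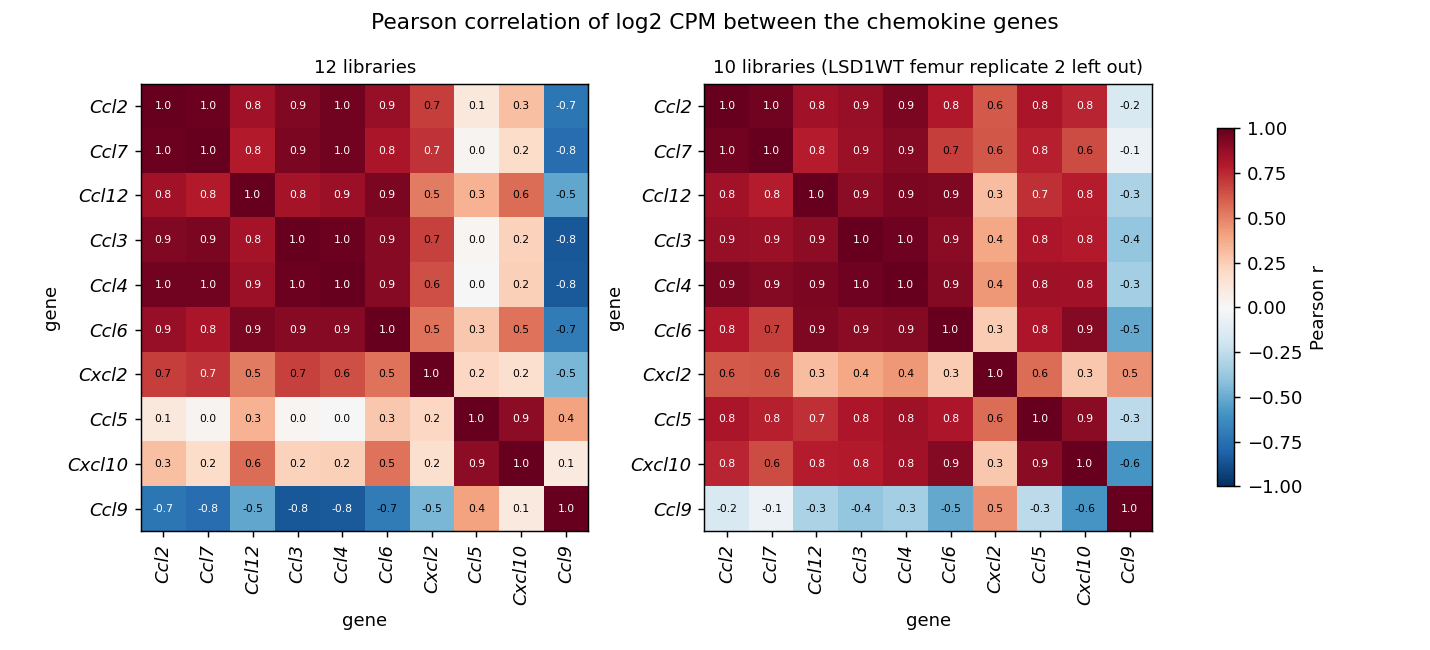
Pearson correlation of log2 CPM between members over 12 libraries (left) and over 10 libraries without LSD1WT femur replicate 2 (right), from -1 in blue to 1 in red. Ccl5 and Cxcl10 form a pair of their own on the left and join the other Ccl genes on the right, while Ccl9 stays apart in both.

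Of the genes outside the family, the one most like each member over the 12 libraries was Qpct for both Ccl2 and Ccl4, with r of 0.97 and 0.99, Ppp1r12c for Ccl3 at 0.99, Sros1 for Ccl6 at 0.99 and Gm44428 for Ccl7 at 0.97. It was Ppp2r3c for Ccl9 at 0.99, Ms4a6b for Ccl12 at 0.97, 4933407K13Rik for Cxcl2 at 0.92, Mcemp1 for Ccl5 at 0.96 and Parp8 for Cxcl10 at 0.99. Each was picked as the highest r among all genes tested, so a high r follows from the choice. The choice was not repeated without the LSD1WT femur replicate 2 libraries.

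Among the other chemokine ligands, 13 of 28 could be tested, and over the 3 cultures 3 rose and 0 fell in LSD1cKO, and the 13 had a median log2 fold change of -0.051 against -0.065 over all genes. These were Cxcl9, Cxcl11 and Cxcl16. Without the LSD1WT femur replicate 2 libraries their log2 fold changes over the cultures were 2.76, 3.96 and 2.19. Cxcl9 and Cxcl11 share the receptor Cxcr3 with Cxcl10 and are likewise interferon-induced, and Cxcl16 is the ligand of Cxcr6. Cxcl16 measured 22.9 and 23.7 CPM in LSD1WT mandible and 124 and 145 CPM in LSD1cKO mandible, and its log2 fold change over the cultures was 1.92 ± 0.24 (adjusted p = 0.0031 by edgeR). Cxcl11 and Cxcl9 had 0 counts in both LSD1WT mandible libraries and in LSD1WT unligated femur replicate 2. In LSD1cKO mandible they reached at most 0.402 and 0.216 CPM, so the size of their fold changes is uncertain. Cxcl11 was at most 0.153 CPM in LSD1WT libraries and reached 2.76 CPM in LSD1cKO, with a log2 fold change of 4.42 ± 0.58 (adjusted p = 0.0037). Cxcl9 was at most 0.411 CPM in LSD1WT and reached 4.30 CPM in LSD1cKO, with a log2 fold change of 3.04 ± 0.65 (adjusted p = 0.0292), and this call was lost in 6 of 12 fits that each left out 1 library.

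Of the members' receptors, 8 of 10 were tested and 0 were called by edgeR over the cultures, with 3 higher and 1 lower at an unadjusted p under 0.05, while DESeq2 called 2 higher, among them Cxcr3. Ccr1 and Ccr2, the most abundant of those described, had log2 fold changes of -0.024 ± 0.50 and 0.71 ± 0.37. Without the LSD1WT femur replicate 2 libraries, 5 receptors were called higher, among them Ccr2, Cxcr2, Cxcr3 and Ccrl2, and Ccr1 was called lower. In that fit 14.4% of all genes were called higher and 24.2% were called in either direction.

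Among interferon signalling genes, 15 were listed and 14 were tested. Over the cultures 4 rose, 0 fell and 3 of the 14 had negative log2 fold changes, with a median of 0.58 against -0.065 over all genes. Irf7, a transcription factor of the interferon response, rose by 2.71 ± 0.42 on the log2 scale (adjusted p = 0.0066 by edgeR). Isg15, a ubiquitin-like interferon-induced protein, changed by 2.65 ± 0.41 (adjusted p = 0.0065) and Ifit1 by 2.59 ± 0.45 (adjusted p = 0.0114). Without the LSD1WT femur replicate 2 libraries the log2 fold changes over the cultures were 3.26 for Irf7, 2.84 for Isg15 and 3.17 for Ifit1. Irf7 measured 1.80 and 1.91 CPM in LSD1WT mandible and 4.53 and 16.6 CPM in LSD1cKO mandible, against 254 and 390 CPM in LSD1cKO ligated femur. Like Cxcl10, Irf7 was therefore far lower in mandible than in femur within LSD1cKO. Between sites, 13 of the 14 interferon genes had negative log2 fold changes in LSD1cKO, with a median of -2.05 against -0.0042 over all genes. The same number were negative in LSD1WT, with a median of -2.01 against -0.034. The femur side in LSD1WT includes the replicate 2 library that stood apart, so this median cannot be set beside that of LSD1cKO as equal. Irf7 measured 14.7 CPM in replicate 1 and 72.2 CPM in replicate 2 of LSD1WT ligated femur. In neither genotype did edgeR call any of them between sites. The calls of Irf7, Ifit1 and Cxcl9 were lost when LSD1WT mandible replicate 3 was counted as femur, at adjusted p of 0.0549, 0.0945 and 0.0704.

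No NF-kB factor or feedback gene passed the test with 12 libraries. All 15 were tested and 0 were called over the cultures, also by DESeq2, with 0 at an unadjusted p under 0.05 and a median log2 fold change of 0.22. Nfkbia, which encodes an inhibitor of NF-kB, had a log2 fold change of 0.18 ± 0.43, Nfkb2 of 0.36 ± 0.38 and Nfkb1 of -0.12 ± 0.12. Without the LSD1WT femur replicate 2 libraries, 3 of the 15 were called higher, Nfkbie, Nfkbiz and Traf1, against 14.4% of all genes.

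Of 8 genes that restrain cytokine signalling or chemokine mRNA, Socs1, an inhibitor of interferon signalling, rose by 1.17 ± 0.23 on the log2 scale over the cultures (adjusted p = 0.0199 by edgeR), and the other 7 did not pass. The call of Socs1 was lost without the LSD1cKO ligated femur replicate 2 library (adjusted p = 0.0514). Socs1 measured 2.20 and 2.46 CPM in LSD1WT mandible and 3.44 and 3.99 CPM in LSD1cKO mandible. Without LSD1WT femur replicate 2 libraries, 4 of the 8 were called higher, Dusp1, Socs1, Socs3 and Atf3, against 14.4% of all genes.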

How the data were processed

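RNA from 12 preosteoclast cultures was sequenced after selection for poly(A). The authors deposited raw counts per gene. The submitters' processing notes name HISAT2 2.1.0, FastQC, featureCounts, edgeR and build GRCm39. The annotation release and the strand setting are not given in the sources used here, so reads of overlapping genes cannot be told apart. Paper and labels give 2 different ages, and the label is used. Groups came from sample titles.

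From the deposited counts, edgeR 4.0.16 (R 4.3.3, limma 3.58.1) was run with filterByExpr, TMM scaling and quasi-likelihood tests across all genes tested. Group contrasts came from 1 fit of the 6 groups, and the effect over cultures from a fit with culture and genotype. Neither fit had a term for the mouse. The adjusted p (Benjamini-Hochberg) threshold was 0.05. Log2 CPM used a prior count of 2. A count of 0 allows up to 3 counts, which covers counting error only. SE is the log2 fold change divided by the square root of F. The test was run on simulated data first. Whether replicates were separate cultures beyond separate mice is not given. The genes described, the lists and the tests were chosen with earlier results of these data known. All members, listed genes passing the test (or the 3 most abundant of a list with none), and 1 gene most like each member were named, except that some listed genes are not reported here.

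Alternatives were DESeq2 1.42.0, RLE scaling, no filter, the compared groups alone, replicate or mouse as block, and libraries left out. Counting LSD1WT mandible replicate 3 as femur was added after seeing the data. The mouse pairs mandible with femur by the labels. Differences between the 2 LSD1cKO mice in mandible and in femur had a correlation of 0.026 over genes.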

Additional observations from a re-analysis of the deposited data

How the results depend on the processing

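The rise of Cxcl10 and Ccl5 over the 3 cultures kept its direction under every alternative run, and lost its call in 1 each, as given above, with adjusted p from 1.4e-06 to 0.0514 for Ccl5 and from 2.0e-07 to 0.0623 for Cxcl10. In femur the direction of Ccl2, Ccl3, Ccl4, Ccl6, Ccl7, Ccl12 and Cxcl2 did not hold under every alternative, and Ccl9 stayed positive in those run. With both LSD1WT femur replicate 2 libraries left out, log2 fold changes of LSD1cKO over LSD1WT turned to 0.91 for Ccl2, 1.11 for Ccl3, 1.37 for Ccl4, 2.20 for Ccl6, 0.76 for Ccl7 and 1.10 for Cxcl2 in ligated femur. In unligated femur they turned to 1.51 for Ccl2, 1.30 for Ccl3, 1.56 for Ccl4, 0.58 for Ccl6 and 2.03 for Ccl7, and over the cultures to 1.26 for Ccl2, 0.89 for Ccl3, 1.27 for Ccl4, 1.05 for Ccl6, 1.29 for Ccl7, 1.06 for Cxcl2 and -0.0022 for Ccl9. Leaving out 1 library at a time gave, in ligated femur, -1.32 to 0.82 for Ccl2, -2.56 to 1.03 for Ccl3, -2.44 to 1.29 for Ccl4, -1.14 to 2.12 for Ccl6, -2.23 to 0.67 for Ccl7, -0.69 to 2.64 for Ccl12 and -2.17 to 1.01 for Cxcl2. In unligated femur the ranges were -2.69 to 1.51 for Ccl2, -1.88 to 1.29 for Ccl3, -3.26 to 1.56 for Ccl4, -1.24 to 0.58 for Ccl6, -2.83 to 2.03 for Ccl7, -1.28 to 1.32 for Ccl12 and -1.28 to 1.96 for Cxcl2. Over the cultures they were -0.42 to 0.64 for Ccl2, -1.26 to 0.066 for Ccl4, -0.30 to 0.44 for Ccl6, -0.77 to 0.36 for Ccl7, -0.30 to 0.96 for Ccl12 and -0.59 to 0.58 for Cxcl2.

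The replicate block turned mandible values to -0.041 for Ccl3, -0.24 for Ccl4, -0.12 for Ccl7, -0.50 for Cxcl2 and 0.12 for Ccl9, and the ligated femur value of Ccl6 to 0.22. It changed no call of a member, while Cxcl9 lost its call. The labels tie no mice across genotypes by number. Correlations of replicate differences between groups of different genotype ran from -0.029 to 0.28, and that between LSD1WT ligated and unligated femur, both with a replicate 2 library that stood apart, was 0.78. With LSD1WT mandible replicate 3 as femur, Ccl6 turned to 0.27 in ligated femur and 0.055 over the cultures. None of these turned values had been called, and the cause was not tested.

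The number of calls depended on the setting. The fit of the mandible libraries alone took its spread from these libraries only, among them the close LSD1WT pair. If that pair shares material, the error of this fit is too small and its calls do not hold. Replicate 3 of the pair is also femur by its library name. In mandible, members called went from 0 to 1 with DESeq2, 4 with the mandible libraries alone (Ccl2, Ccl5, Ccl6 and Cxcl10, all higher) and 1 without LSD1WT femur replicate 2, while genes called went from 0 to 146, 5434 and 936. In ligated femur, 3 members and 1497 genes were called without LSD1WT femur replicate 2. In unligated femur DESeq2 called 1 member and 122 genes. Over the cultures, members called were 5 without LSD1WT femur replicate 2, 1 with LSD1WT mandible replicate 3 as femur, and 1 to 2 leaving out 1 library, while genes called went from 544 to 1248 with DESeq2, 3867, 348 and as few as 298. Between sites in LSD1WT, 0 members became 5 with DESeq2, 4 with no filter, 3 with the mouse block, 1 without LSD1WT femur replicate 2 and 0 to 5 leaving out 1 library, the 5 coming without LSD1WT ligated femur replicate 1, and genes called reached 1190, 821, 1189, 144 and 3759. Between sites in LSD1cKO, 0 became 3, 2, 8 and 4 in that order, 7 with the compared libraries alone and 0 to 1 leaving out 1 library, the 1 coming without any one of the 4 LSD1WT femur libraries, and genes called reached 810, 329, 5678, 3466 and 6101. RLE scaling moved no count of members called. At these depths Ccl12 in mandible, at 3 counts or fewer, could not be compared between genotypes.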
